A study of Mus musculus with 2 samples.

Results

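The 10 genes described here act in catching and attracting leukocytes or, for Lbp, in binding bacterial lipopolysaccharide. They were measured in single cells of the mouse stria vascularis (SV), the vascularised epithelium of the cochlear lateral wall. Members were Icam1, Icam2, Vcam1, Sele and Selp (adhesion molecules), Ccl2, Cxcl1, Cxcl12 and Cx3cl1 (chemokines) and Lbp (a binding protein for bacterial lipopolysaccharide). They were matched by Ensembl identifier, and all 10 were among the 27040 genes listed in both count matrices. One library came from 10 Tie2-GFP mice, in which GFP is driven by the Tie2 promoter and is read as an endothelial label, and the other from 10 NG2-DsRed mice, in which DsRed is driven by the NG2 (Cspg4) promoter and is read as a pericyte label. Mice were 1 to 3 months old, and the strial tissue of 20 cochleae was pooled per line. The tissue was digested with collagenase and then with papain, and the cells were loaded on the 10x Genomics platform. The labels name no treatment. Each line gave 1 library, so no comparison had replicates and no p-value was computed, and intervals below are 95% intervals that cover counting error only.

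Leukocytes leave the blood in steps. Selectins (Sele, Selp) slow them, chemokines held on the vessel wall activate them, and Icam1, Icam2 and Vcam1 bind their integrins and stop them. In most resting vascular beds Icam2 is made constitutively, Selp is stored in endothelial granules, mainly of venules, and Icam1, Vcam1, Sele, Ccl2 and Cxcl1 are induced by cytokines such as TNF and IL-1 through the transcription factor NF-κB. Cxcl12 is a homeostatic chemokine, and Cx3cl1 (fractalkine) is a chemokine tethered to the membrane. The question put to the data was which of these genes were on in strial endothelium, in which other cells, and whether the inducible ones were spread over many cells or held by few.

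Barcodes were assigned to classes by detected marker genes. A barcode with at least 4 of Pecam1, Cdh5, Cldn5, Flt1, Egfl7 and Ramp2 was endothelial, one with at least 3 of Pdgfrb, Rgs5, Vtn and Notch3 and at most 1 of the 6 endothelial genes was mural (pericytes and smooth muscle), and one with all of Dct, Tyr and Kcnj10 was intermediate (the melanocyte-like cells of the stria). After the study's limits on genes, UMIs and mitochondrial and ribosomal reads, the Tie2-GFP library gave 368 endothelial, 2 mural and 84 intermediate barcodes of 633, and the NG2-DsRed library gave 54 endothelial, 94 mural and 23 intermediate barcodes of 201. The 2 mural barcodes of the Tie2-GFP library were too few to describe. The mitochondrial limit was lifted for intermediate barcodes, whose median mitochondrial share was 9.36% and 5.55%. Depth differed between classes: the median was 7502.5 UMIs in Tie2-GFP endothelial barcodes, 9010 in NG2-DsRed endothelial, 3017.5 in NG2-DsRed mural, and 15339.5 and 10383 in intermediate barcodes of the Tie2-GFP and NG2-DsRed libraries. The deposited barcodes of the 2 lines summed to 5432289 (Tie2-GFP) and 1232599 UMIs (NG2-DsRed), and the libraries shared 0 cell barcodes. The labels name endothelial cells for the first library and pericytes for the second, but only 46.8% of the second library's barcodes were mural and 26.9% were endothelial. Of these 54 endothelial barcodes 38 carried 2 or more of the 4 mural genes, whose summed level was 4892 CPM (UMIs in 1000000 UMIs of the class), against 869 CPM in Tie2-GFP endothelial barcodes and 17515 CPM in mural barcodes. Leukocyte genes were nearly absent from the classes: the 12 macrophage markers summed to 13 UMIs in Tie2-GFP endothelial barcodes and 8 in NG2-DsRed endothelial barcodes, and Ptprc, the pan-leukocyte gene, had 0 UMIs in every class.

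In the endothelial barcodes of the Tie2-GFP library the order of the members was Cxcl12 at 432 CPM (interval 410 to 455), Icam1 at 230 (213 to 247), Icam2 at 209 (194 to 225), Cx3cl1 at 60.0 (51.9 to 69.0), Cxcl1 at 59.1 (51.0 to 68.0), Lbp at 53.0 (45.4 to 61.5), Vcam1 at 31.4 (25.6 to 38.0), Sele at 4.87 (2.78 to 7.91), Ccl2 at 1.83 (0.670 to 3.98) and Selp at 0. UMIs count 1 tag per captured transcript and were not scaled by gene length. The intervals of Icam1 and Icam2 overlapped, as did those of Cx3cl1, Cxcl1 and Lbp, and those of Sele and Ccl2, so the order within these groups was not resolved. The single most abundant member was thus a homeostatic chemokine, followed by 1 inducible and 1 constitutive adhesion molecule at like levels.

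**Figure D1:**
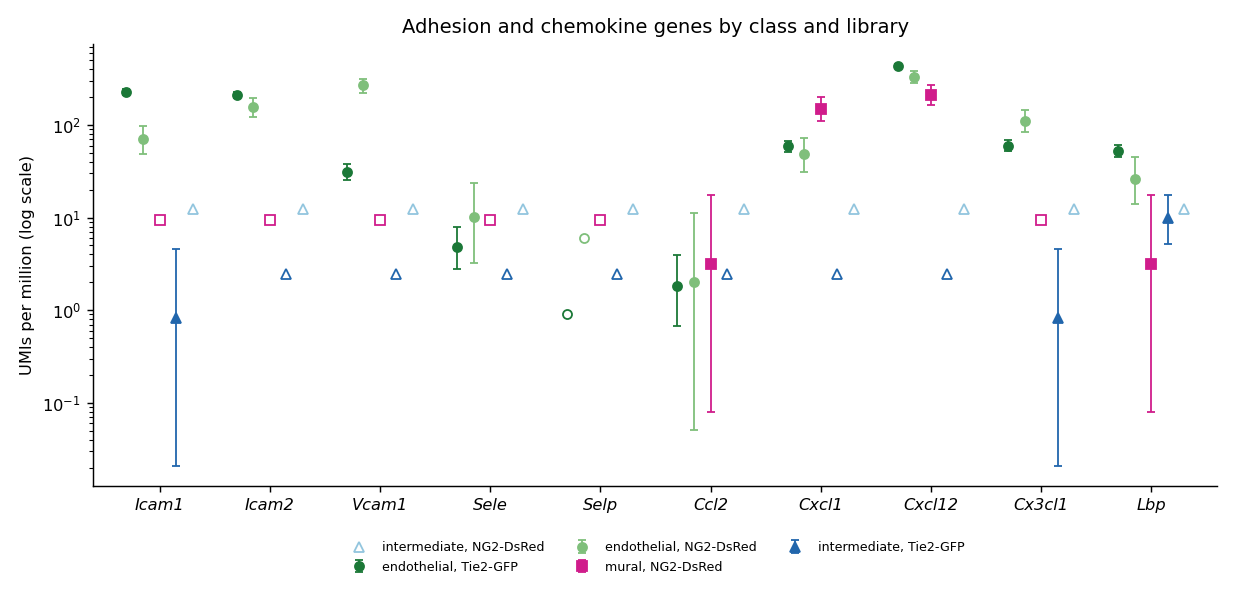
Level of each gene in CPM (log axis) in each class and library; filled symbols are summed UMIs with exact Poisson 95% intervals, and open symbols mark classes with 0 UMIs, drawn at the level that 3 counts would give. Icam1, Icam2, Vcam1, Sele and Cx3cl1 were found in endothelial barcodes and at 0 in mural barcodes, whereas Cxcl1 and Cxcl12 had mural levels of 150 and 213. For Sele the classes were not told apart, since the mural upper end of 11.5 lay above its endothelial levels of 4.87 and 10.0.

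Icam2 and Cxcl12 were the most widely detected members. Icam2 led in Tie2-GFP endothelial barcodes with all UMIs, and Cxcl12 led in the NG2-DsRed library and, thinned to 2000 UMIs, in both (40.2% against 35.2% and 40.4% against 23.6%). The gene (ENSMUSG00000001029) lies on chromosome 11 at 106377656 to 106388075, minus strand, in the GENCODE M21 annotation of GRCm38. It had a UMI in 277 of 368 Tie2-GFP endothelial barcodes (75.3%) and in 32 of 54 in the NG2-DsRed library (59.3%). Its summed UMIs were 686 and 77, or 209 and 155 CPM. It had 0 UMIs in 94 mural barcodes, where 3 counts would give 9.38 CPM, and 0 in the intermediate barcodes of both libraries. No endothelial barcode of these held more than 9 of its UMIs. With the class at 0 taken at 3 counts, Icam2 was 84.0-fold higher in endothelial than in intermediate barcodes of the Tie2-GFP library (lower end of the interval 68.1). In the NG2-DsRed library it was 16.5-fold higher than in mural (lower end 13.1) and 12.6-fold higher than in intermediate barcodes (lower end 10.0).

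Icam1, which resting endothelium of many organs makes at a low level and cytokines raise, was at the level of Icam2 in the Tie2-GFP library but was distributed differently. The gene (ENSMUSG00000037405) lies on chromosome 9 at 21015985 to 21028817, plus strand. It had 754 UMIs in 151 of 368 Tie2-GFP endothelial barcodes (41.0%, interval 36.0 to 46.2), with up to 55 in 1 barcode. In the NG2-DsRed library it had 35 UMIs in 11 of 54 barcodes (20.4%, 10.6 to 33.5), or 70.3 CPM, and 21 of the 35 were in 1 barcode. Without that barcode the NG2-DsRed level was 29.0 CPM (15.8 to 48.6), and without the highest barcode of the Tie2-GFP library the level there was 214 CPM (198 to 230). With each barcode thinned to 2000 UMIs, and shallower ones left out, Icam1 had an expected share of 19.6% in 353 Tie2-GFP barcodes (15 left out) and of 6.92% in the 54 of the NG2-DsRed library (0 left out). Mural barcodes had 0 Icam1 UMIs, and intermediate barcodes had 1 in the Tie2-GFP library and 0 in the NG2-DsRed library.

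Vcam1, the classical marker of cytokine-activated endothelium, was found in few barcodes. The gene (ENSMUSG00000027962) lies on chromosome 3 at 116109949 to 116129688, minus strand. In the Tie2-GFP library 23 of 368 endothelial barcodes (6.25%, 4.00 to 9.23) held 103 UMIs, and the 2 highest held 30 and 23 of them. In the NG2-DsRed library 8 of 54 (14.8%, 6.62 to 27.1) held 133 UMIs, of which 119 were in 1 barcode. The NG2-DsRed level was 267 CPM with this barcode and 29.0 CPM (15.8 to 48.6) without it, which overlapped the interval of the Tie2-GFP level (31.4 CPM with all barcodes and 22.3 CPM without its highest). Vcam1 had 0 UMIs in the NG2-DsRed mural barcodes and in the intermediate barcodes of both libraries. A further 24 UMIs of the Tie2-GFP library were in 1 of 11 endothelial barcodes outside the limits.

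The selectins were close to absent. Sele (ENSMUSG00000026582, chromosome 1 at 164048234 to 164057677, plus strand) had 16 UMIs in 10 of 368 Tie2-GFP endothelial barcodes (2.72%, 1.31 to 4.94) and 5 UMIs, all in 1 barcode, in the NG2-DsRed library. Selp (ENSMUSG00000026580, chromosome 1 at 164115264 to 164150026, plus strand) was listed in both matrices and had 0 UMIs in all 633 and all 201 deposited barcodes. In the 368 Tie2-GFP endothelial barcodes 3 counts would give 0.913 CPM and 0.815% of barcodes with a UMI, and the upper ends of the 95% intervals were 1.12 CPM and 0.997%. These limit barcodes with a UMI, not cells that express the gene. Ackr1, an atypical chemokine receptor that marks venular endothelium, was also at 0 in the endothelial barcodes of both libraries. It is 1 of the 10 venous genes used below, and each of the others was detected in Tie2-GFP endothelial barcodes. The 0 of Ackr1 thus does not show that venous endothelium was missing.

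Cxcl12, which holds cells that carry its receptor Cxcr4 near vessels, was the leading chemokine of endothelium and was shared with mural cells. The gene (ENSMUSG00000061353) lies on chromosome 6 at 117168535 to 117181367, plus strand. It had 1419 UMIs in 235 of 368 Tie2-GFP endothelial barcodes (63.9%), 165 in 39 of 54 NG2-DsRed endothelial barcodes (72.2%) and 68 in 44 of 94 mural barcodes (46.8%), or 432, 331 and 213 CPM. Intermediate barcodes of both libraries had 0. Within the NG2-DsRed library the endothelial level was 1.56-fold the mural level (1.17 to 2.10). Thinned to 2000 UMIs, with 18 of the 94 mural barcodes left out as too shallow, the shares were 40.2%, 40.4% and 33.5%, so the gap between endothelial and mural shares was smaller at equal depth. Its decoy receptor Ackr3 had 23.1 CPM in Tie2-GFP endothelial, 38.2 CPM in NG2-DsRed endothelial and 100 CPM in mural barcodes.

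Cxcl1, which attracts neutrophils, was the 1 member with at least 20 UMIs whose level was higher in mural than in endothelial barcodes. The gene (ENSMUSG00000029380) lies on chromosome 5 at 90891241 to 90893115, plus strand. It had 48 UMIs in 17 of 94 mural barcodes (18.1%, 150 CPM), 24 in 9 of 54 NG2-DsRed endothelial barcodes (16.7%, 48.2 CPM) and 194 in 69 of 368 Tie2-GFP endothelial barcodes (18.8%, 59.1 CPM). The endothelial level of the NG2-DsRed library was 0.321 of the mural level (0.188 to 0.535). The mural genes carried by a barcode moved with this value. All 24 Cxcl1 UMIs of NG2-DsRed endothelial barcodes were in the 38 with 2 or more mural genes, and the other 16 had 0. In the Tie2-GFP library Cxcl1 was at 116 CPM in the 30 endothelial barcodes with 2 or more mural genes. It was at 49.2 CPM in the 338 with fewer. Of the 56 UMIs in these 30 barcodes 25 were in 1 barcode, so the gap in CPM rested in large part on it. The shares of barcodes with a UMI were 46.7% (28.3 to 65.7) and 16.3% (12.5 to 20.6). Thinned to equal depth they were 14.3% and 6.28%. Part of the endothelial count thus lay in barcodes with mural RNA, while 138 of the 194 Tie2-GFP UMIs were in barcodes with at most 1 mural gene.

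Promoter sequence bears on the inducible members, since NF-κB binds a known motif. RefSeq promoter windows (250 bases before to 50 after the start, GRCm38.p6) were given for 6 of the 10 members: Icam1, Sele, Selp, Cxcl1, Cxcl12 and Cx3cl1. The NF-κB consensus of 10 bases was searched for on both strands. It was found in 1 of the 6, Cxcl1, in 9 of 12 genes of the NF-κB list with a window, and in 9.55% of 27025 genes of the table. Variants of the consensus and sequence outside the windows were not searched, so a gene without a match may still hold a site. The Cxcl1 match starts 71 bases before the start, and its letters match on both strands with an overlap of all but 1 base. The 120 bases before the start are shown for Cxcl1, which holds the motif (capitals, both overlapping matches), and for Icam1, the most abundant inducible member, which has no match to these letters in its window. Both are on the plus strand, at chr5:90891125-90891244 and chr9:21015820-21015939.
Cxcl1: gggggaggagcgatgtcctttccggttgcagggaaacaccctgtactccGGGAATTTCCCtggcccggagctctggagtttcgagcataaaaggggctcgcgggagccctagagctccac
Icam1: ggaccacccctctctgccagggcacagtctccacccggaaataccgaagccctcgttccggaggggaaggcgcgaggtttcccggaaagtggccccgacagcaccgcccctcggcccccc

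Ccl2, which attracts monocytes, was close to absent. The gene (ENSMUSG00000035385) lies on chromosome 11 at 82035571 to 82037453, plus strand. It had 6 UMIs in 3 Tie2-GFP endothelial barcodes, 1 UMI in NG2-DsRed endothelial and 1 in mural barcodes, and 0 in intermediate barcodes. All 6 Tie2-GFP UMIs were in barcodes with 2 or more mural genes, and the 338 barcodes with at most 1 had 0.

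Cx3cl1 (ENSMUSG00000031778, chromosome 8 at 94772009 to 94782427, plus strand) was detected in 126 of 368 Tie2-GFP endothelial barcodes (34.2%) with 197 UMIs and at most 7 in 1 barcode, and in 20 of 54 in the NG2-DsRed library (37.0%) with 55 UMIs. Levels were 60.0 and 110 CPM, and the NG2-DsRed level was 60.1 CPM (40.2 to 86.2) without the 1 barcode that held 26 UMIs. It had 0 UMIs in mural barcodes, and 1 and 0 in the intermediate barcodes of the Tie2-GFP and NG2-DsRed libraries. Its leukocyte receptor gene Cx3cr1 had 0 UMIs in Tie2-GFP endothelial barcodes. It was detected in NG2-DsRed endothelial barcodes, where it was 1 of the 12 macrophage markers that together had 8 UMIs.

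Lbp, which presents bacterial lipopolysaccharide to its receptors and is best known as a liver product, was detected in strial endothelium. The gene (ENSMUSG00000016024) lies on chromosome 2 at 158306493 to 158332852, plus strand. It had 174 UMIs in 80 of 368 Tie2-GFP endothelial barcodes (21.7%, 53.0 CPM) and 13 in 8 of 54 NG2-DsRed endothelial barcodes (14.8%, 26.1 CPM). Mural barcodes had 1 UMI. Tie2-GFP intermediate barcodes had 12, of which 11 were in 1 barcode, and NG2-DsRed intermediate barcodes had 0. The endothelial level was 5.33-fold the intermediate level in the Tie2-GFP library (2.97 to 10.5).

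For every member the share of intermediate barcodes with a UMI was at most 2.38%, in barcodes of higher median depth than the endothelial ones. The 95% upper ends of these shares were 4.30% to 8.34% in the Tie2-GFP library, below the endothelial intervals of Icam1, Icam2, Cxcl1, Cxcl12, Cx3cl1 and Lbp, while those of Vcam1, Sele and Ccl2 overlapped. With 0 of 23 intermediate barcodes the upper end was 14.8% in the NG2-DsRed library, below the endothelial intervals of Icam2, Cxcl12 and Cx3cl1 only, so the shares of the other members were not told apart there at this depth.

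**Figure D2:**
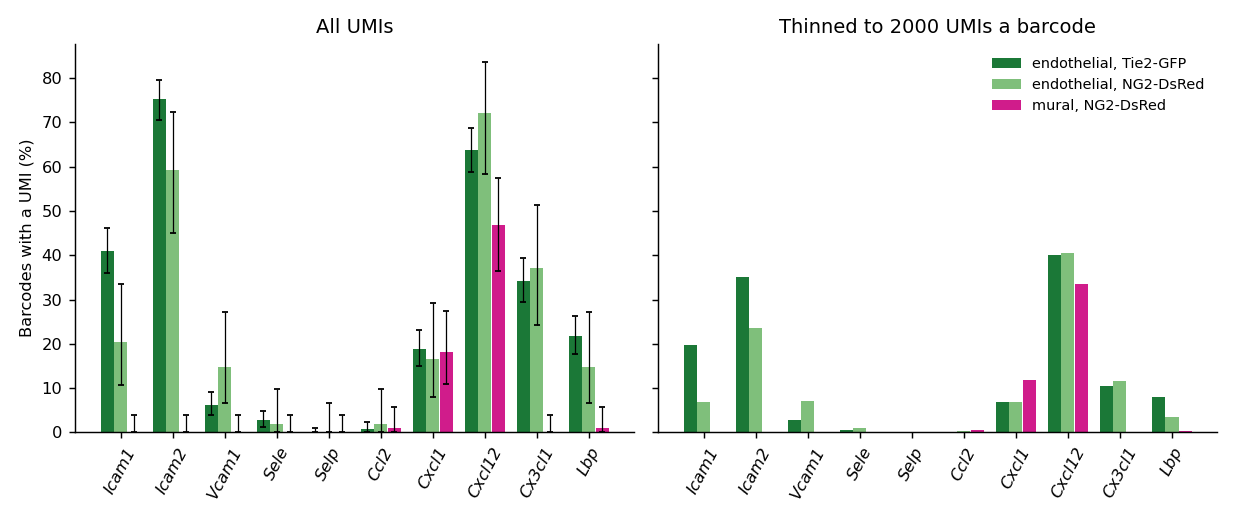
Share of barcodes with at least 1 UMI of each gene, in percent, for all UMIs (left, with exact Clopper-Pearson 95% intervals) and the share predicted when every barcode is thinned to 2000 UMIs (right). Icam2 and Cxcl12 were the most widely detected in endothelial barcodes, and Icam1 fell from 41.0% to 19.6% with thinning in the Tie2-GFP library.

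Across all genes, a gene was called when the CPM ratio was at least 4 in either direction and both classes together held at least 20 UMIs, with a class at 0 taken at 3 counts. Between endothelial and intermediate barcodes of the Tie2-GFP library, 7 of the 7 members tested were higher in endothelial barcodes (Icam1, Icam2, Vcam1, Cxcl1, Cxcl12, Cx3cl1 and Lbp), where 14.9% of 10191 genes were. Sele, Ccl2 and Selp had too few UMIs to be tested. The median log2 ratio of the 7 was 6.18, beside 0.18 over all genes tested. In the NG2-DsRed library 5 of 6 were higher (background 13.3%), and Cxcl1 was just under the limit, 3.94-fold higher (lower end of the interval 2.96). The median log2 ratio was 3.42 beside 0.21 over all genes. Endothelial against mural barcodes gave 4 of 6 higher, Icam1, Icam2, Vcam1 and Cx3cl1 (background 6.24%), with a median of 3.23 beside -0.09. Mural against intermediate barcodes gave 2 of 2, Cxcl1 and Cxcl12 (background 14.2%), with a median of 3.87 beside 0.20. In all 4 comparisons each member called had at most 12 UMIs in the lower class. It thus passed the minimum of 20 UMIs only through the class where it was higher. These counts and medians are a description and no test. Without the barcode with most UMIs of each gene, an alternative added after the data were seen, the NG2-DsRed counts against intermediate and mural barcodes were 3 and 2, since Icam1 and Vcam1 then had too few UMIs. With the mitochondrial limit also on intermediate barcodes only 6 and 7 of them were left, and the Tie2-GFP and NG2-DsRed counts were 4 (Icam1, Icam2, Cxcl12 and Cx3cl1) and 3 (Icam2, Vcam1 and Cxcl12). The log2 ratio of Lbp then turned to -0.89, since the intermediate barcode with 11 UMIs was 1 of those left.

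Beyond presence, the members differed in how evenly they were spread. The 10% of Tie2-GFP endothelial barcodes richest in a gene held 31.5% of the UMIs of Icam2, 49.1% of Cxcl12, 52.3% of Cx3cl1, 73.6% of Icam1, 74.7% of Lbp and 83.5% of Cxcl1. The 23 barcodes with Vcam1 were fewer than the 37 counted here, so the same share for Vcam1 was 100%. For rare genes part of this follows from the low number of UMIs, but Icam1 and Icam2 had like totals (754 and 686 UMIs) and differed from each other. Icam1 was thus held in large part by a minority of endothelial barcodes, while Icam2 was spread over most.

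**Figure D3:**
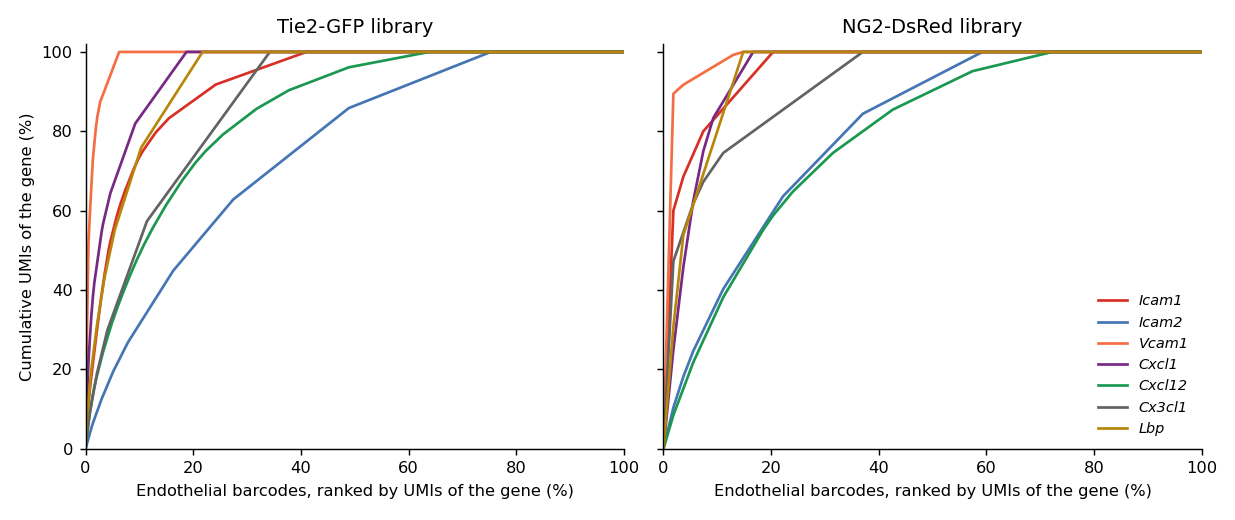
Cumulative share of a gene's UMIs (y axis, percent) over endothelial barcodes ranked from most to fewest UMIs of that gene (x axis, percent of barcodes), for the Tie2-GFP (left) and NG2-DsRed (right) libraries. The Icam2 and Cxcl12 curves rise slowly, whereas 1 barcode of the NG2-DsRed library held 89.5% of the Vcam1 UMIs.

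Of the 368 Tie2-GFP endothelial barcodes 9 had none of the 10 members, 120 had 2, 85 had 3 and 1 had 7, the highest number seen. Some inducible members lay in the same barcodes. In the Tie2-GFP library Icam1 was found in 19 of the 23 barcodes with Vcam1 (82.6%) and in 38.3% of the 345 without, and 9.44 of 23 would carry both if the shares were multiplied. Barcodes with Vcam1 had 698 CPM of Icam1 (600 to 807) against 189 (174 to 205) in those without. Cx3cl1 was 141 CPM against 52.9, Cxcl1 118 against 53.9, and Icam2 244 against 206, with overlapping intervals for Icam2. Cxcl12 was lower in barcodes with Vcam1, at 313 CPM (249 to 388) against 442 (419 to 467), and Lbp was 41.9 against 53.9 with overlapping intervals. Barcodes with Vcam1 were deeper (median 10510 against 7331 UMIs), and thinned to 2000 UMIs Icam1 was expected in 55.4% of them against 17.1%. In the NG2-DsRed library Icam1 was 287 CPM in the 8 barcodes with Vcam1 and 22.1 CPM in the 46 without, which rested on 1 barcode, and Cxcl1 had 1 UMI in these 8 barcodes and 23 UMIs (56.5 CPM) in the others. Over the 368 Tie2-GFP barcodes the Pearson correlation of log values was 0.22 between Icam1 and Cxcl1, 0.19 between Icam1 and Vcam1, -0.22 between Icam1 and Cxcl12 and -0.24 between Cxcl12 and Lbp. These are weak values over cells of 1 library that differ in depth, and they are given as a description.

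A single NG2-DsRed endothelial barcode carried nearly the whole inducible set, and was singled out after its values were seen. It had 14834 UMIs, 3801 genes, 2.24% mitochondrial UMIs, all 6 endothelial genes and 1 mural gene. It held 119 Vcam1, 26 Cx3cl1, 21 Icam1, 9 Cxcl12, 8 Icam2, 5 Sele and 1 Ccl2 UMIs, with 0 of Cxcl1, Lbp and Selp. It also held 61 UMIs of Nfkbia, 9 of Cxcl2, 7 of Relb, 5 of Birc3 and 4 of Tnfaip3, all targets or parts of the NF-κB pathway. It had 0 UMIs of the 12 macrophage markers. No other endothelial barcode of that library held more than 3 UMIs of Vcam1.

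In the Tie2-GFP library 3 of 368 endothelial barcodes held Icam1, Vcam1, Sele and Cx3cl1 together, and 14 held Icam1, Vcam1 and Cx3cl1. The 2 barcodes richest in Vcam1 there, both arterial-leaning by the split described next, had little Icam1. By the same rule the NG2-DsRed barcode described above was venous-leaning. The barcode with 30 Vcam1 UMIs had 11 Bmx and 20 Mgp UMIs (arterial genes), 0 Icam1 and 0 Sele, and the next, with 23, had 1 Icam1 UMI. The barcode with most Icam1 (55 UMIs) had 0 Vcam1, 51 Nfkbia and 8 Vwf UMIs.

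Endothelial barcodes of the Tie2-GFP library were then split by their arterial and venous genes, 14 and 10 genes that include no member. Those with at least 2 more arterial than venous genes detected (140 barcodes) were called arterial-leaning and those with at least 2 more venous genes (65) venous-leaning. Icam1 was 184 CPM (161 to 209) in arterial-leaning, 153 (133 to 175) between and 503 (448 to 563) in venous-leaning barcodes, 2.73-fold higher in venous- than in arterial-leaning (2.30 to 3.25). Its shares of barcodes were 41.4% (33.2 to 50.1), 34.4% (27.1 to 42.2) and 56.9% (44.0 to 69.2), with overlapping intervals for arterial- and venous-leaning. Thinned to 2000 UMIs they were 18.7%, 15.5% and 31.3%. Of the 304 venous-leaning Icam1 UMIs 55 were in 1 barcode, and 7 barcodes held 66.8%. Cxcl12 ran the other way, at 686 CPM (641 to 733), 303 (275 to 333) and 195 (162 to 234), a ratio of 0.285 (0.233 to 0.346). Lbp was 22.7 CPM (15.2 to 32.6) in arterial-leaning, 59.8 (47.7 to 74.0) between and 101 (77.3 to 130) in venous-leaning barcodes, 4.44-fold higher in the last than in the first (2.81 to 7.17). Vcam1 was 67.4 CPM (53.9 to 83.3) in arterial-leaning, 4.98 between and 16.6 (7.94 to 30.5) in venous-leaning barcodes, a ratio of 0.246 (0.114 to 0.474). Icam2 differed little, at 201, 201 and 243 CPM, and Cxcl1 (73.7, 42.0 and 67.9) and Cx3cl1 (72.1, 49.8 and 58.0) had overlapping intervals in the arterial- and venous-leaning sets.

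By the 4-fold rule 1 of 7 members, Lbp, was higher in venous-leaning barcodes, where 0.241% of 7897 genes were, and 1 of 7, Vcam1, was lower (background 1.65%). The median log2 ratio of the 7 was -0.12, beside -0.02 over all genes. The split by a difference of 1 gene gave log2 ratios of 1.53 for Lbp and -1.52 for Vcam1, both short of 4-fold, and 1.30 for Icam1. With endothelial barcodes limited to at most 1 mural gene Cxcl12 passed the limit too (log2 ratio -2.01). The summed mural genes were 1469 CPM in arterial-leaning and 341 CPM in venous-leaning barcodes, and their part in the values above was otherwise not tested. The share of barcodes with Vcam1 was close in the sets, 16 of 140 arterial-leaning (11.4%, 6.68 to 17.9) and 6 of 65 venous-leaning (9.23%, 3.46 to 19.0), and 2 barcodes held 30 and 23 of the 86 arterial-leaning Vcam1 UMIs. In the NG2-DsRed library the only venous-leaning barcode was the 1 with 119 Vcam1 UMIs. The 31 arterial-leaning barcodes there had 37.0 CPM of Vcam1 (18.5 to 66.3). Cxcl9, an interferon-induced chemokine outside the 10 members, was higher in venous-leaning barcodes of the Tie2-GFP library, at 54.6 CPM (33 UMIs) against 3.14 CPM (4 UMIs). Few Tie2-GFP endothelial barcodes held Cxcl9 at all (share given below), so these levels rest on few barcodes.

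**Figure D4:**
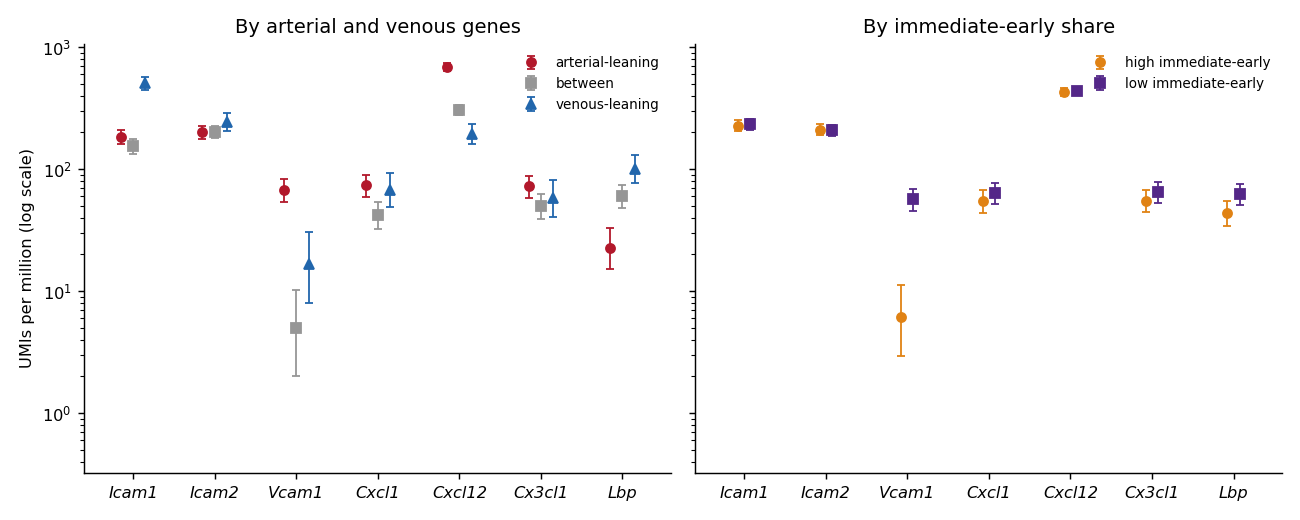
Levels of 7 genes in CPM (log axis, exact Poisson 95% intervals) in Tie2-GFP endothelial barcodes split by arterial and venous genes (left) and at the median share of immediate-early UMIs (right). Icam1 and Lbp were highest in venous-leaning and Cxcl12 and Vcam1 in arterial-leaning barcodes. Between the high and low immediate-early sets only Vcam1, of the genes shown, differed by 4-fold or more. The intervals of the shares of barcodes with Vcam1, and of those with Icam1, overlapped between arterial- and venous-leaning and between high and low sets.

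Immediate-early genes (Fos, Jun, Egr1 and 7 others), which rise within minutes of stimulation and during enzymatic dissociation, were high in the vascular classes, with a summed level of 22629 CPM in Tie2-GFP endothelial, 34481 CPM in NG2-DsRed endothelial, 23737 CPM in mural, and 2429 and 6336 CPM in intermediate barcodes. All 10 were called higher in endothelial than in intermediate barcodes of the Tie2-GFP library (background 14.9%). Tie2-GFP endothelial barcodes were divided at the median of their immediate-early share, which gave sets of 184 with 32400 and 12961 CPM. Icam1 was 227 CPM in the high and 232 CPM in the low set (ratio 0.979, 0.846 to 1.13), Icam2 211 and 207, Cxcl12 430 and 434, Cxcl1 54.5 and 63.6, and Cx3cl1 55.1 and 64.8. Lbp was 43.5 and 62.4 CPM (ratio 0.697, 0.507 to 0.952). None of 7 members was higher by 4-fold in the high set (background 0.0328%), and 1, Vcam1, was lower, at 6.12 against 56.3 CPM (background 0.306%). The median log2 ratio of the 7 was -0.22, beside -0.04 over all genes. None of the 10 immediate-early genes that made the split passed 4-fold either (median log2 ratio 1.12). The count of 0 members higher is thus no result about the members. Vcam1 fell short of 4-fold with all deposited barcodes (log2 ratio -1.45). It was found in 8 of 184 high (4.35%, 1.90 to 8.39) and 15 of 184 low barcodes (8.15%, 4.63 to 13.1), with overlapping intervals. Of its 93 UMIs in the low set 30 were in 1 barcode. The ratio of Cxcl1 was 0.857 (0.638 to 1.15), so for both Icam1 and Cxcl1 the interval of the CPM ratio held 1. Icam1 was found in 85 of 184 high (46.2%, 38.8 to 53.7) and 66 of 184 low barcodes (35.9%, 28.9 to 43.3), with overlapping intervals. Thinned to equal depth its shares were 22.4% and 16.9%. Of its 383 UMIs in the low set 55 were in 1 barcode, so the CPM ratio alone does not show that Icam1 was alike in both sets. The shares of Cxcl1 ran the other way, at 16.3% and 21.2%. Whether dissociation raised the members in all barcodes alike was not tested.

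The rest of the pathway was described with lists chosen together with the members. Of 16 NF-κB targets and pathway genes, 11 of 16 tested were higher in endothelial than in intermediate barcodes of the Tie2-GFP library, against 14.9% of all genes, and none was lower. Their median log2 ratio was 2.26. The leading 3 were Ier3 (an early survival gene) at 2631 CPM against 125, Nfkbia (the inhibitor IκBα, itself a target) at 1662 against 91.2, and Nfkbiz (IκBζ) at 176 against 36.5. Tnfaip3, which encodes the inhibitor A20, was 38.7 CPM against 0, and Cd40 18.6 CPM against 0.829. In the NG2-DsRed library 4 of 8 tested were higher than in intermediate barcodes (background 13.3%), and 2 of 7, Ier3 (1764 against 288 CPM) and Nfkbia (822 against 200 CPM), were higher than in mural barcodes (background 6.24%). Ier3 and Nfkbia were found in 94.3% and 93.8% of Tie2-GFP endothelial barcodes, far more widely than any inducible adhesion gene.

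**Figure D5:**
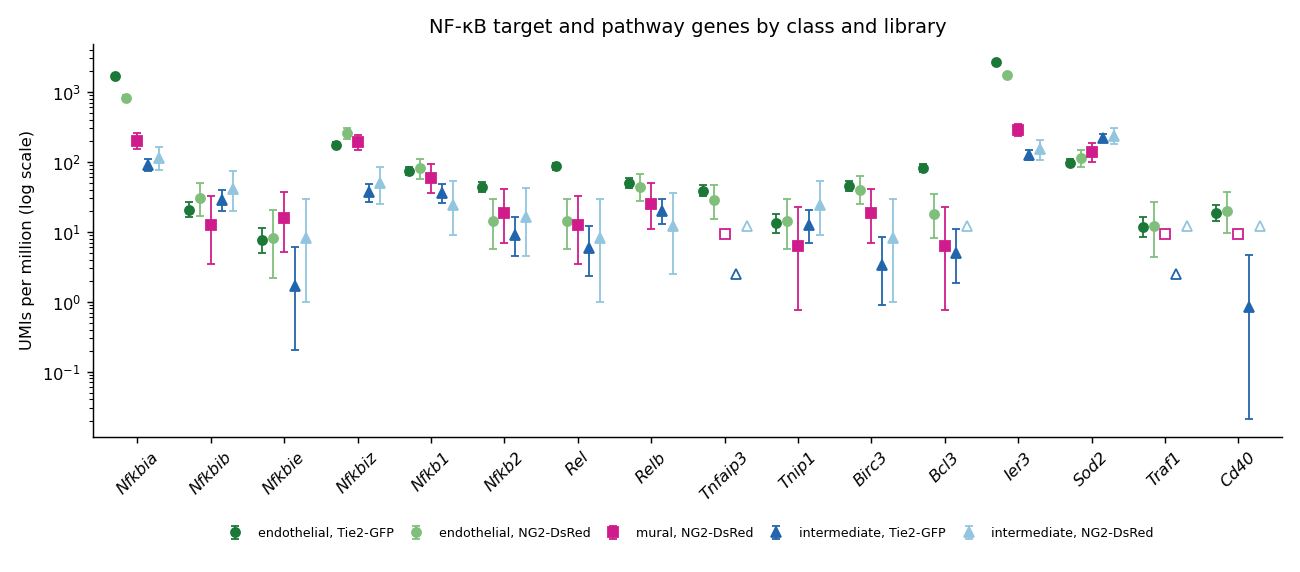
Levels of 16 NF-κB target and pathway genes in CPM (log axis, exact Poisson 95% intervals) by class and library; open symbols are classes with 0 UMIs, drawn at the level of 3 counts. Ier3 and Nfkbia stand above the rest in endothelial barcodes of both libraries, at 2631 and 1662 in the Tie2-GFP library.

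Receptors for the inducing cytokines were detected. The list of 14 genes also held the adaptor Myd88 and sensors of microbial products (Tlr2, Tlr4, Cd14 and Ly96). Of the 14 genes 12 were tested, and 5 were higher in endothelial than in intermediate barcodes of the Tie2-GFP library (background 14.9%). These were Osmr, Il6ra, Myd88, Tnfrsf1b and Il1r1. The median log2 ratio of those tested was 1.63, beside 0.18 over all genes. Il1r1 was also 1 of the 10 venous genes above. The highest were Il6st (the shared subunit gp130) at 180 CPM, Osmr (the oncostatin M receptor) at 166 CPM and Tnfrsf1a (the main TNF receptor) at 124 CPM. Between NG2-DsRed endothelial and mural barcodes 0 of 7 tested differed by 4-fold, where 6.24% of all genes were higher and 5.32% lower. The count of 0 is thus no result about the listed genes. Of 15 genes of junctions and the endothelial surface that leukocytes pass, 10 were tested, 7 were higher in Tie2-GFP endothelial barcodes (background 14.9%), led by Cd34 (695 CPM), Emcn (654 CPM) and Esam (466 CPM), and 1, Alcam (an adhesion molecule that leukocytes and other cells use), was lower (2.44 against 45.6 CPM; 8.51% of all genes were lower). Of 9 tested in the NG2-DsRed library 4 (Cd34, Podxl, Jam2 and F11r) were higher than in mural barcodes (background 6.24%). Emcn and Esam were not. Of 6 tested between mural and intermediate barcodes, 4 (Jam3, Esam, Emcn and Mcam) were higher in mural barcodes and 1, Jam2, was lower (backgrounds 14.2% and 7.07%).

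Of 25 other chemokines matched in both matrices only 3 had enough UMIs in the Tie2-GFP library. Cxcl10, an interferon-induced chemokine, had 78.3 CPM in 13.9% of endothelial barcodes, Cxcl9 23.1 CPM in 2.72%, and Ccl25 17.1 CPM in 12.0%. Cxcl10 and Cxcl9 were called higher than in intermediate barcodes (background 14.9%), where both were at 0. They thus passed the minimum of 20 UMIs only through endothelial barcodes. Cxcl10 was 4.02 CPM in NG2-DsRed endothelial barcodes, below the 6.03 CPM that 3 counts would give there. The gap of 19.5-fold between the libraries thus rests on too few UMIs to fix its size (background 2.95%). Reporter line, mice, preparation and software also differed between them. Of 12 chemokine receptors 1, Ackr3, was tested and was not called (23.1 against 15.7 CPM), and the next highest were Cxcr2 at 4.87 and Cxcr4 at 2.13 CPM. Of 10 genes for the leukocyte side of these contacts 3 were tested, 0 were higher in endothelial barcodes and 2 were lower (backgrounds 14.9% and 8.51%). Itgb1, which many cells make, had 368 CPM, and Itga4 (2.13 against 48.9 CPM) and Cd44 (1.83 against 214 CPM) were lower than in intermediate barcodes.

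For members in at least 20% of Tie2-GFP endothelial barcodes, the genes whose log values per 10000 UMIs followed them most closely were sought among 7230 genes. Icam1 was closest to Gadd45b (r = 0.34), Tnfaip3 (0.33) and Rnd1 (0.32) over 368 barcodes, and in the 54 NG2-DsRed barcodes the values were -0.05, 0.72 and 0.33. The value of 0.72 may rest in large part on 1 barcode, which held 21 of the 35 Icam1 UMIs there and 4 of Tnfaip3. Sele, found in that endothelial barcode alone, had r = 0.69 with Icam1. The values without this barcode were not computed. Cxcl12 was closest to Slc6a6 (0.47), Glul (0.43) and Mt1 (0.40), with 0.08, 0.20 and 0.40 in the NG2-DsRed library. Icam2 was closest to Bcam (0.26), Cldn5 and Emp2 (both 0.25), Cx3cl1 to Nmt2, Sos2 and Rnd1 (0.22, 0.22 and 0.21), and Lbp to Adamts4, Apoe and Eepd1 (0.24, 0.23 and 0.23). The barcodes share library and depth, the genes were ranked on the same barcodes, and most values are weak.

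Between the libraries, Tie2-GFP endothelial barcodes had no member 4-fold above NG2-DsRed endothelial barcodes (0 of 8, background 2.95%) and 1 member 4-fold below, Vcam1 (background 2.76%), which rested on the 1 barcode above and had a log2 ratio of -0.38 without the highest barcode of each library. The median log2 ratio of the 8 was 0.34, beside -0.09 over all genes. Icam1 was 3.26-fold higher in the Tie2-GFP library (2.33 to 4.72), and passed the limit without the highest barcodes (log2 ratio 2.88) and with equal weight of barcodes (2.10), but was 0.14 among barcodes with at most 1 mural gene, of which the NG2-DsRed library had 16, the barcode rich in Vcam1 among them. Cx3cl1 then passed the limit on the other side (log2 ratio -2.21). Lbp was 2.03-fold higher (1.16 to 3.89), Icam2 1.35-fold and Cxcl12 1.30-fold. Of the NF-κB list Rel (85.9 against 14.1 CPM) and Bcl3 (81.9 against 18.1 CPM) were higher in the Tie2-GFP library (background 2.95%). Reporter line, mice, library preparation and software version differed together between the libraries and cannot be told apart.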

How the data were processed

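The 2 10x Genomics libraries of pooled strial cells were analysed, 1 per reporter line. The deposited values are the authors' UMI counts, whole numbers for each gene in each cell barcode, after cell calling and without normalisation. Per the file headers, the Tie2-GFP matrix was made with Cell Ranger 7.0.0 and the NG2-DsRed matrix with a software version given as 3.0.0, and the submitters' processing notes name bcl2fastq 2.20.0.422 and build mm10. The annotation and whether intronic reads were counted are not given in the sources used here. Cells were sorted by reporter where enrichment was needed.

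Limits were those of the study's methods: 200 to 6000 genes and 200 to 30000 UMIs (Tie2-GFP) or 200 to 5000 genes and 200 to 20000 UMIs (NG2-DsRed), at most 5% mitochondrial and 40% ribosomal UMIs, without the mitochondrial limit for intermediate barcodes. The 2 barcodes that met 2 classes were left out, and no doublet caller was run. Class sums gave CPM with exact Poisson intervals, shares with Clopper-Pearson intervals, and ratios with exact conditional binomial intervals. Thinned shares are hypergeometric expectations. A class at 0 was taken at 3 counts per class. The ratio, interval and thinning steps were tested on simulated data. Python 3.11.15, numpy 2.4.6, scipy 1.17.1, pandas 2.3.3 and matplotlib 3.10.9 were used. Coordinates are those of GENCODE M21 on GRCm38, and promoters those of RefSeq. Ccl19, Ccl21a, Cxcl11, Ccl27a and Trac, on the lists, had no single entry in both matrices.

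The members and lists were chosen with earlier results of these data known. Besides the 10 members, the text names from each list the 3 genes with most CPM in Tie2-GFP endothelial barcodes and up to 4 called genes, and for each member in at least 20% of these barcodes its 3 closest genes among those in at least 10%. Ackr1, Cx3cr1, Cxcl2 and the genes of single barcodes (Relb, Birc3, Vwf, Bmx, Mgp) were named after their values were seen. Alternatives changed the limits, the class rules, the weight of barcodes, the total, the UMI minimum, the thinning depth and the arterial and venous rule.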

Additional observations from a re-analysis of the deposited data

Results flagged for a closer look

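Sele had a higher level in Tie2-GFP barcodes that met no class rule, which no comparison above used, than in endothelial barcodes: 17.9 CPM (9.23 to 31.2) against 4.87 (2.78 to 7.91). All 12 UMIs were in 1 of the 163 barcodes, out of 28 Sele UMIs in the whole library. That barcode had 5369 UMIs, 3.95% mitochondrial UMIs and 3 of the 6 endothelial genes, 1 short of the rule, and also held 11 Vcam1, 8 Icam1, 7 Cx3cl1, 4 Lbp, 11 Nfkbia and 3 Vwf UMIs. It is 1 barcode, and what kind of cell it came from was not tested.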

How the results depend on the processing

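Of 130 recomputed counts of members past 4-fold, 117 stayed within 1.5 times the value reported. With the mitochondrial limit on intermediate barcodes, endothelial against intermediate gave 4 (Tie2-GFP) and 3 (NG2-DsRed), since 6 and 7 intermediate barcodes were left, and the Lbp ratio of the Tie2-GFP library turned to -0.89 (log2), because the 1 barcode with 11 UMIs was among those left. Without the barcode with most UMIs of each member, chosen after seeing the data, endothelial barcodes gave 3 against intermediate and 2 against mural (NG2-DsRed), and between libraries 1 member was higher in Tie2-GFP and 0 lower. Between libraries, equal weight of barcodes gave 1 higher, and at most 1 mural gene gave 2 lower. In venous- against arterial-leaning barcodes, at most 1 mural gene and equal weight each gave 2 lower, and leaning by 1 gene gave 0 higher and 0 lower. With all deposited barcodes 0 members were lower in the high immediate-early set. Of 551 recomputed ratios 506 stayed within the interval and on the same side of 4-fold, 44 moved and the Lbp ratio above reversed, and of 650 levels 30 moved beyond their interval. Some alternatives could not move these results, so the totals overstate stability. The thinning depth entered only the thinned shares, and the lower UMI minima could move no level or ratio. Ratios that lost their test were not counted, which left 37 of 43 without the top barcodes. Of 300 thinned shares 41 moved, with 18 of 50 at a depth of 1000 UMIs. No paired analysis was possible because each reporter line has 1 library. Depth limits the rare members: the 95% upper end for 0 UMIs was 1.12 CPM in Tie2-GFP endothelial and 11.5 CPM in mural barcodes.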
